A study of Mus musculus with 12 samples.

Results

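The NuRD complex (nucleosome remodelling and deacetylase) joins an ATP-driven chromatin remodeller to histone deacetylases, and 10 of its genes were followed here through the development of mouse male germ cells. Members were the rows of the expression table whose Ensembl identifier maps to Chd3, Chd4, Hdac1, Hdac2, Mbd2, Mbd3, Mta1, Mta2, Mta3 or Gatad2a, and all 10 were found among the 55487 genes of the table. RNA was taken from testicular germ cells of mice carrying the Mvh-Venus transgene, a fluorescent reporter of the germ line, at 2 embryonic stages named by their day (E13.5 and E16.5), at P0, the day of birth, and at P3, in the first days of postnatal life, with 3 libraries per stage and 12 in all. Titles and source names give WT at every stage, whereas the genotype tag gives Morc1 (+/-) at E13.5 and P0 and Morc1 (-/-) at E16.5 and P3. Libraries were therefore grouped by stage alone. Each step between consecutive stages also crosses this tag, so stage and tag cannot be told apart there, while P0 against E13.5 and P3 against E16.5 each stay within 1 tag value. Morc1 itself, a germ cell ATPase, had 1621 to 1830 normalized counts at E13.5, 28328 to 32917 at E16.5, 7280 to 7708 at P0 and 10584 to 11129 at P3, so the stages tagged -/- were not the lowest. Nothing in the labels says whether the 3 libraries of a stage came from separate animals or pools, so p-values measure the spread between these libraries, which may be technical.

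In NuRD, the remodeller is CHD3, CHD4 or CHD5 and the deacetylases are HDAC1 and HDAC2. MTA proteins form the scaffold that holds the deacetylases, and GATAD2A or GATAD2B ties the methyl-CpG-binding subunit to the remodeller. That subunit is either MBD2, which binds methylated CpG sites, or MBD3, whose mammalian form has largely lost this binding, and a complex holds one or the other. The histone chaperones RBBP4 and RBBP7 and the small subunits CDK2AP1 and CDK2AP2 complete it. Male germ cells of the mouse enter mitotic arrest, regain DNA methylation before birth and resume division in the first days of life, which is the window sampled here.

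Each library held 40946616 to 51533747 reads in genes. Deposited values are normalized counts, the reads of a gene divided by a size factor of its library. Stage order below is E13.5, E16.5, P0, P3. That factor averaged 0.939 ± 0.0175, 1.13 ± 0.117, 1.94 ± 0.118 and 1.01 ± 0.0225 in stage order (SD, n = 3 libraries each), so P0 values in particular depend on the scaling. The lowest read number behind any member in any library was 75, for Chd3. The germ cell identity of the libraries was checked on 7 germ cell genes, whose summed normalized counts were 245998 to 255594 at E13.5, 233293 to 258623 at E16.5, 134122 to 141221 at P0 and 234284 to 256009 at P3. These sums hide opposite moves of single genes: 3 rose and 3 fell to E16.5, 1 rose and 6 fell to P0, and 6 rose and 1 fell to P3. The marker sums here and below are in the scaling of the table, so the low germ cell sum at P0 depends on it. Scaled to equal library totals instead, 4 rose and 1 fell, 1 rose and 5 fell, and 6 rose and 1 fell. Their median log2 fold change at P0 against E16.5 was -1.10 as deposited and -0.43 with equal library totals. From E13.5 to E16.5, mean Dazl went from 139041 to 35953 and mean Mael from 14374 to 76214. The 8 Sertoli cell markers summed to 2376 to 3460 at E13.5, 2043 to 3733 at E16.5, 4113 to 8326 at P0 and 2397 to 3118 at P3. All 7 of the Sertoli genes tested rose at P0 against E16.5 and 6 fell at P3. Sums of 6 Leydig cell genes were 573 to 729 at E13.5 and 179 to 267 at P3, and differed widely between libraries at the stages between. They were 623, 1236 and 7763 in libraries 1, 3 and 4 of E16.5, and 6201, 3169 and 1133 in those of P0. Of 5 Leydig genes tested, 0 were called at P0 against E16.5. Insl3 and Lhcgr, Leydig cell genes, were at 0 in all P3 libraries. Sums of 5 peritubular genes were 171 to 224 at E13.5, 1253 to 1867 at E16.5, 3699 to 4160 at P0 and 797 to 916 at P3, and those of 6 blood cell genes were 66.3 to 443, 1791 to 2530, 1642 to 2591 and 306 to 559. Of 7 mast cell genes tested, 6 rose at P0 against E16.5 (median log2 fold change 5.90) and 6 fell at P3 (median -5.89), and Tpsb2, a mast cell tryptase, had 655 to 1296 normalized counts at P0 and at most 129 elsewhere. Of 6 macrophage and endothelial genes, 5 rose from E13.5 to E16.5, while Pecam1, also present on fetal germ cells, went from 4326 to 5074 down to 212 to 360. In bulk samples, fewer cells of a type and less RNA per cell cannot be told apart, and the part of these other cells in the results below was not tested.

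All 10 NuRD genes differed among the 4 stages (limma F-test on log2 values, adjusted p under 0.05), where 95.2% of the 22384 genes tested did so, so the call alone does not set them apart. From E13.5 to E16.5, 6 members fell (Chd4, Hdac1, Mbd3, Mta1, Mta3 and Gatad2a) and 3 rose (Chd3, Mbd2 and Mta2), 9 calls of 10 where 80.1% of all genes were called, 45.5% higher and 34.6% lower. Scaling to equal library totals gave 5 higher and 5 lower instead, with Chd4 changing sign. Of all genes called under that scaling, 70.1% were higher. In the scaling of the table, the members' median log2 fold change was -0.66 and that of all genes was 0.31. From P0 to P3, 9 members rose and Chd3 fell, against 76.5% of all genes called, 40.1% higher and 36.4% lower. The median was 0.90 beside 0.05 for all genes, and with equal library totals 4 were called higher and 3 lower, with Hdac2, Mbd2 and Mta3 changing sign. Of all genes called with equal library totals, 25.2% were higher.

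Between E16.5 and P0, 8 members were called, 2 higher (Chd3 and Mta1) and 6 lower (Chd4, Hdac1, Hdac2, Mbd3, Mta2 and Gatad2a), where 61.0% of all genes were called, 27.6% higher and 33.4% lower. Only 5 of the 10 members kept their sign here under all 5 scalings, the fewest of the 6 comparisons: equal library totals turned it to 7 higher and 3 lower, and median-of-ratios factors to 3 higher and 5 lower. Of all genes called under these scalings, in that order, 78.7% and 59.6% were higher. Against E13.5, all 10 members differed at P0, 2 higher and 8 lower (86.1% of all genes called, 45.7% higher and 40.5% lower), or 4 higher and 5 lower with equal library totals. Under equal library totals, 77.2% of all genes called were higher there. P3 against E16.5, a comparison within 1 genotype tag, had 7 members higher and 2 lower (69.5% of all genes called, 34.2% higher and 35.2% lower), and these 9 calls were made with the same sign under each of the 5 scalings. P3 against E13.5 had 3 higher and 5 lower (70.4% of all genes called, 39.2% higher and 31.2% lower). The libraries of E16.5 and E13.5 did not overlap in 8 of 10 members (80.2% of all genes), those of P0 and E16.5 in 9 (69.5%) and those of P3 and P0 in 10 (81.0%). For P0 and E13.5 this held in 10 members (88.1%), for P3 and E16.5 in 10 (71.6%) and for P3 and E13.5 in 9 (71.3%). Overlaps of normalized counts, here and below, are those in the scaling of the table. They were not counted under the other scalings, where stages that stand apart here may overlap. In the scaling of the table, 6 of the 10 members were lower at E16.5 than E13.5 and higher again at P3 than P0, a course that 25.6% of all genes followed. With equal library totals, Chd4 at E16.5 and Mta3 at P3 left this course by sign, and Mta1 at P3 (0.12) was not called. Hdac1, Mbd3 and Gatad2a kept the course by sign and call. The share of all genes on this course with equal library totals was not counted, so these members cannot be set against it. The opposite course was that of Chd3, and of 26.7% of all genes.

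**Figure D1:**
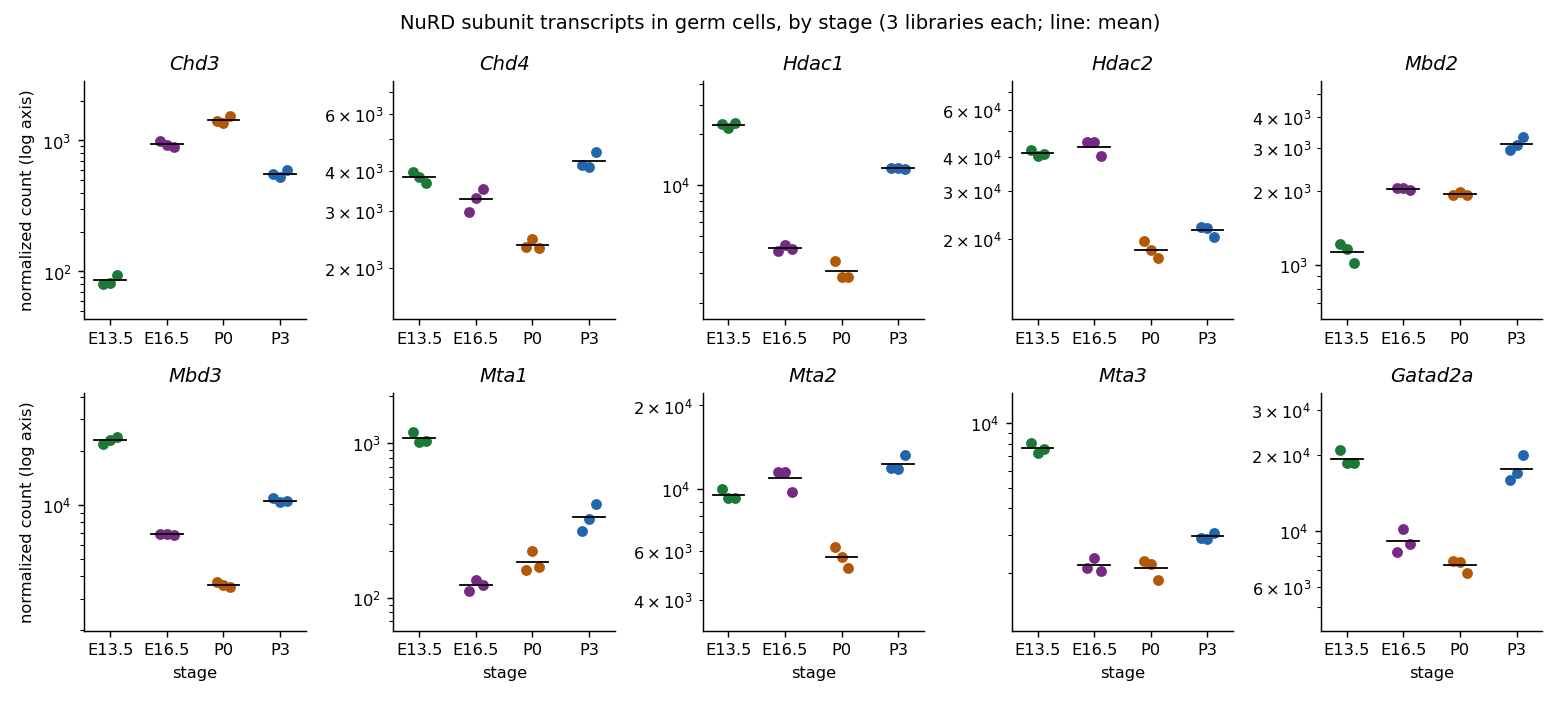
Normalized counts of the 10 NuRD genes (vertical log axis) at E13.5, E16.5, P0 and P3, with 1 point per library and a short horizontal line at the mean of the 3 libraries of each stage. Hdac1, Mbd3, Mta1 and Mta3 stand highest at E13.5, whereas Chd3 is lowest there, between 80.2 and 94.6.

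Among the remodellers, Chd3 showed the widest range of any member and, in the scaling of the table, was the only member that fell from P0 to P3. Chd3 (ENSMUSG00000018474, chr11:69343273-69369406, minus strand, GRCm38) had 80.2, 81.6 and 94.6 normalized counts at E13.5, then 990.5, 923 and 898 at E16.5, 1418, 1349 and 1533 at P0, then 551, 524 and 598 at P3. No stages overlapped, and the order was P0, E16.5, P3 and E13.5. Its mean went from 85.5 ± 7.96 at E13.5 to 1433 ± 93.1 at P0 (SD, n = 3), a 16.8-fold difference. On the log2(count + 1) scale Chd3 rose by 3.44 from E13.5 to E16.5 (SE 0.109, limma adjusted p = 4.33e-14) and by 0.61 to P0 (adjusted p = 0.000127), and fell by 1.36 to P3 (adjusted p = 6.53e-09). Each of these directions was the same under all 5 scalings. The same 3 values were 3.94, 1.27 and -2.20 with equal library totals. The summed Sertoli and peritubular markers were highest at P0 too, and 6 of 7 mast cell genes tested were higher at P0 than at E16.5 and P3. Within stages, library 1 of E16.5 had the highest Chd3 (990.5), the highest peritubular sum (1867) and the lowest Sertoli sum (2043). Library 4 had the highest Chd3 at E13.5 (94.6), P0 (1533) and P3 (598). The Sertoli sum of that library was the lowest of its stage at E13.5 (2376) and P0 (4113), but the highest at P3 (3118). At P3 its peritubular sum was the lowest (797). The part of these cells in the Chd3 values was not tested.

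Chd4, the remodeller of most NuRD complexes studied, changed little by comparison. Chd4 (ENSMUSG00000063870, chr6:125095981-125130591, plus strand) had 3973, 3829 and 3681 normalized counts at E13.5, 2988, 3290 and 3513 at E16.5, 2334, 2464 and 2308 at P0, then 4162, 4124 and 4574 at P3. The lowest stage was P0, and the highest mean was 1.81 times the lowest. Chd4 rose by 0.85 from P0 to P3 (SE 0.0752, limma adjusted p = 2.27e-08), which was 0.01 and not called with equal library totals. Its decline of -0.23 from E13.5 to E16.5 (adjusted p = 0.00963) became 0.27 with equal library totals, that of -0.46 to P0 became 0.20 and that of -0.69 between E13.5 and P0 became 0.48. P3 and E13.5 were 0.16 apart (adjusted p = 0.0643). The direction of Chd4 between prenatal stages and birth is thus set by the scaling, whereas its ratio to another gene of the same library is not.

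The ratio of Chd3 to Chd4, taken inside each library, shifted at every step. As log2 of counts it was -5.61, -5.53 and -5.27 at E13.5, -1.59, -1.83 and -1.97 at E16.5, -0.72, -0.87 and -0.59 at P0, then -2.91, -2.97 and -2.93 at P3. No stages overlapped. The ratio thus moved 26.8-fold between E13.5 and P0 (exact permutation test of the 12 libraries over 15400 partitions into stages, p = 6.49e-05, the smallest possible, and 9.74e-05 after Benjamini-Hochberg adjustment over 9 pairs of paralogues). Ratios of other pairs of genes were not tested. As 95.2% of all genes differed among the stages, a low p of a ratio here or below does not set the paralogues apart. Chd5, the remodeller best known from neurons and spermatids, peaked at a different stage, with 282 ± 6.43, 1090 ± 53.4, 355 ± 31.0 and 159 ± 31.7 normalized counts in stage order. Its log2 ratio to Chd4 was highest at E16.5 (-1.58) and lowest at P3 (-4.76, exact permutation p = 6.49e-05, 9.74e-05 adjusted).

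The deacetylases separated in time. Hdac1 (ENSMUSG00000028800, chr4:129516104-129542713, minus strand) had 23225, 21830 and 23381 normalized counts at E13.5, 4077, 4417 and 4177 at E16.5, 3541, 2839 and 2852 at P0, then 12664, 12665 and 12553 at P3. E13.5 was highest and P3 next, with both above the other two stages. Hdac1 fell by 2.43 on the log2 scale from E13.5 to E16.5 (SE 0.0795, limma adjusted p = 6.64e-14) and rose by 2.04 from P0 to P3 (adjusted p = 9.13e-13, and by 1.20 with equal library totals), under all 5 scalings. The step between E16.5 and P0 was -0.46, and 0.20 with equal library totals. Of the 50-base words in Hdac1 exons, 35.5% also occur in other genes, among them the processed pseudogene Gm10093, which was listed at means of 1962, 417, 314 and 1121 over the 4 stages, so reads may have been split between copies.

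Hdac2 (ENSMUSG00000019777, chr10:36974544-37001889, plus strand) was not called different between the prenatal stages, with 42551, 40327 and 41106 normalized counts at E13.5 and 45579, 45396 and 40576 at E16.5. It had 19541, 18084 and 16925 at P0, then 22007, 21956 and 20343 at P3. The prenatal stages overlapped each other and stood above both postnatal stages in the scaling of the table, but P0 against E13.5, at -1.19, was -0.02 and not called with equal library totals (limma adjusted p = 0.737). The prenatal difference was 0.08 (limma adjusted p = 0.288), called higher under TMM, median-of-ratios and equal-total scaling. Hdac2 fell by 1.27 to P0 (SE 0.0714, adjusted p = 1.89e-10, and by 0.61 with equal library totals), and its rise to P3 of 0.24 (adjusted p = 0.00616) was -0.20 with median-of-ratios factors and -0.60 with equal library totals.

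Within a library, the log2 ratio of Hdac1 to Hdac2 was -0.87, -0.89 and -0.81 at E13.5, -3.48, -3.36 and -3.28 at E16.5, -2.46, -2.67 and -2.57 at P0, then -0.80, -0.79 and -0.70 at P3. Hdac1 was thus lowest relative to Hdac2 at E16.5, and its ratio at P3 was slightly above that at E13.5 with no overlap. The range was 6.11-fold (exact permutation p = 6.49e-05, 9.74e-05 adjusted over 9 pairs).

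The methyl-CpG-binding subunits moved in opposite directions before birth. Mbd3 (ENSMUSG00000035478, chr10:80392539-80399550, minus strand) had 21863, 22960 and 23911 normalized counts at E13.5, 6859, 6902 and 6757 at E16.5, 3726, 3557 and 3501 at P0, then 10928, 10313 and 10433 at P3. No stages overlapped, and the highest mean was 6.37 times the lowest. Mbd3 fell by 1.74 from E13.5 to E16.5 (SE 0.0607, limma adjusted p = 1.47e-13) and by 0.93 to P0 (adjusted p = 1.16e-09), then rose by 1.55 to P3 (adjusted p = 9.80e-13). These 3 changes kept sign and call with equal library totals but were -1.24, -0.27 and 0.71.

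Mbd2 (ENSMUSG00000024513, chr18:70568189-70626131, plus strand) had 1223, 1161 and 1022 normalized counts at E13.5, 2067, 2067 and 2017 at E16.5, 1923, 1988 and 1938 at P0, then 2946, 3088 and 3315 at P3. Values at E16.5 and P0 lay closest together, and P3 stood above all other libraries. Mbd2 rose by 0.86 from E13.5 to E16.5 (SE 0.0792, limma adjusted p = 3.40e-08, and 1.36 with equal library totals) and by 1.46 from E13.5 to P3 (adjusted p = 6.11e-11). The step from E16.5 to P0 was -0.07 (adjusted p = 0.443), and 0.04, 0.18 and 0.59 under TMM, median-of-ratios and equal-total scaling. The rise from P0 to P3 of 0.67 (adjusted p = 8.06e-07) was -0.17 with equal library totals.

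The log2 ratio of Mbd2 to Mbd3 was -4.16, -4.30 and -4.55 at E13.5, -1.73, -1.74 and -1.74 at E16.5, -0.95, -0.84 and -0.85 at P0, then -1.89, -1.74 and -1.65 at P3. It peaked at P0, then E16.5 and P3 overlapped. Between E13.5 and P0 it moved 11.0-fold (exact permutation p = 0.000519, also 0.000519 after adjustment over 9 pairs).

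The MTA scaffold genes fell into those that dropped before birth and one that did not. Mta1 (ENSMUSG00000021144, chr12:113098278-113137206, plus strand) had 1172, 1013 and 1023 normalized counts at E13.5, 110, 130.2 and 121 at E16.5, 151, 199 and 157 at P0, then 270.4, 320.1 and 401 at P3. In the scaling of the table no stages overlapped, and E13.5 exceeded E16.5 8.89-fold. Mta1 fell by 3.14 from E13.5 to E16.5 (SE 0.161, limma adjusted p = 1.53e-11) and rose by 0.95 from P0 to P3 (adjusted p = 4.63e-05), the latter 0.12 and not called with equal library totals. Its increase of 0.48 from E16.5 to P0 (adjusted p = 0.0165) lost the call without library 1 of E16.5 (adjusted p = 0.0566) or library 3 of P0 (adjusted p = 0.0927), and was 1.14 with equal library totals.

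Mta3 (ENSMUSG00000055817, chr17:83706163-83821516, plus strand) had 8057, 7293 and 7595 normalized counts at E13.5, 2114, 2359 and 2053 at E16.5, 2267, 2202 and 1851 at P0, then 2913, 2892 and 3080 at P3. E16.5 and P0 overlapped (log2 difference -0.05, limma adjusted p = 0.633, and of the other sign under TMM, median-of-ratios and equal-total scaling). Mta3 fell by 1.81 from E13.5 to E16.5 (SE 0.0847, adjusted p = 4.66e-12), and its increase of 0.50 from P0 to P3 (adjusted p = 5.23e-05) was -0.34 with equal library totals.

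Mta2 (ENSMUSG00000071646, chr19:8941875-8952303, plus strand) had 10064, 9340 and 9336 normalized counts at E13.5, 11546, 11571 and 9781 at E16.5, 6186, 5704 and 5207 at P0, then 11937, 11800 and 13259 at P3. P0 stood below and P3 above all other libraries, and E13.5 and E16.5 overlapped. Mta2 fell by 0.94 from E16.5 to P0 (SE 0.0831, limma adjusted p = 4.60e-08) and rose by 1.12 to P3 (adjusted p = 2.67e-09), values that were -0.28 and 0.27 with equal library totals, and P0 against E13.5 was -0.75 as deposited and 0.42 with equal library totals. The difference of 0.19 between E16.5 and E13.5 (adjusted p = 0.0438) was lost when any 1 of 7 libraries was left out, with adjusted p of up to 0.146, and was 0.70 with equal library totals.

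Inside a library, Mta2 gained on both paralogues at E16.5. The log2 ratio of Mta2 to Mta3 averaged 0.33 ± 0.0298, 2.33 ± 0.104, 1.44 ± 0.0604 and 2.06 ± 0.0429 in stage order (SD, n = 3, exact permutation p = 6.49e-05, 9.74e-05 adjusted). The ratio of Mta1 to Mta2 averaged -3.16 ± 0.0551, -6.50 ± 0.192, -5.07 ± 0.255 and -5.23 ± 0.210 in the same order, a 10.1-fold range in which P0 and P3 overlapped (exact permutation p = 2.60e-04, 2.92e-04 adjusted).

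Gatad2a, the bridge between MBD subunit and remodeller, followed Hdac1 and Mbd3 in order of stages. Gatad2a (ENSMUSG00000036180, chr8:69907076-69996384, minus strand) had 20812, 18592 and 18560 normalized counts at E13.5, 8272, 10217 and 8887 at E16.5, 7606, 7524 and 6832 at P0, then 15917, 16948 and 19950 at P3. E13.5 and P3 overlapped (log2 difference -0.14, limma adjusted p = 0.195, and 0.19 with equal library totals). Gatad2a fell by 1.09 from E13.5 to E16.5 (SE 0.0929, adjusted p = 1.23e-08) and rose by 1.261 from P0 to P3 (adjusted p = 2.32e-09), changes of -0.58 and 0.42 with equal library totals. Its decline of -0.31 from E16.5 to P0 (adjusted p = 0.00782) was 0.35 with equal library totals and lost the call without library 3 of E16.5 (adjusted p = 0.0520). Gatad2b had 871 ± 116, 1935 ± 77.4, 1305 ± 66.1 and 1065 ± 64.9 normalized counts in stage order, so that the log2 ratio of Gatad2a to Gatad2b went from 4.48 at E13.5 to 2.23 at E16.5, then 2.49 at P0 and 4.04 at P3 (exact permutation p = 2.60e-04, 2.92e-04 adjusted).

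**Figure D2:**
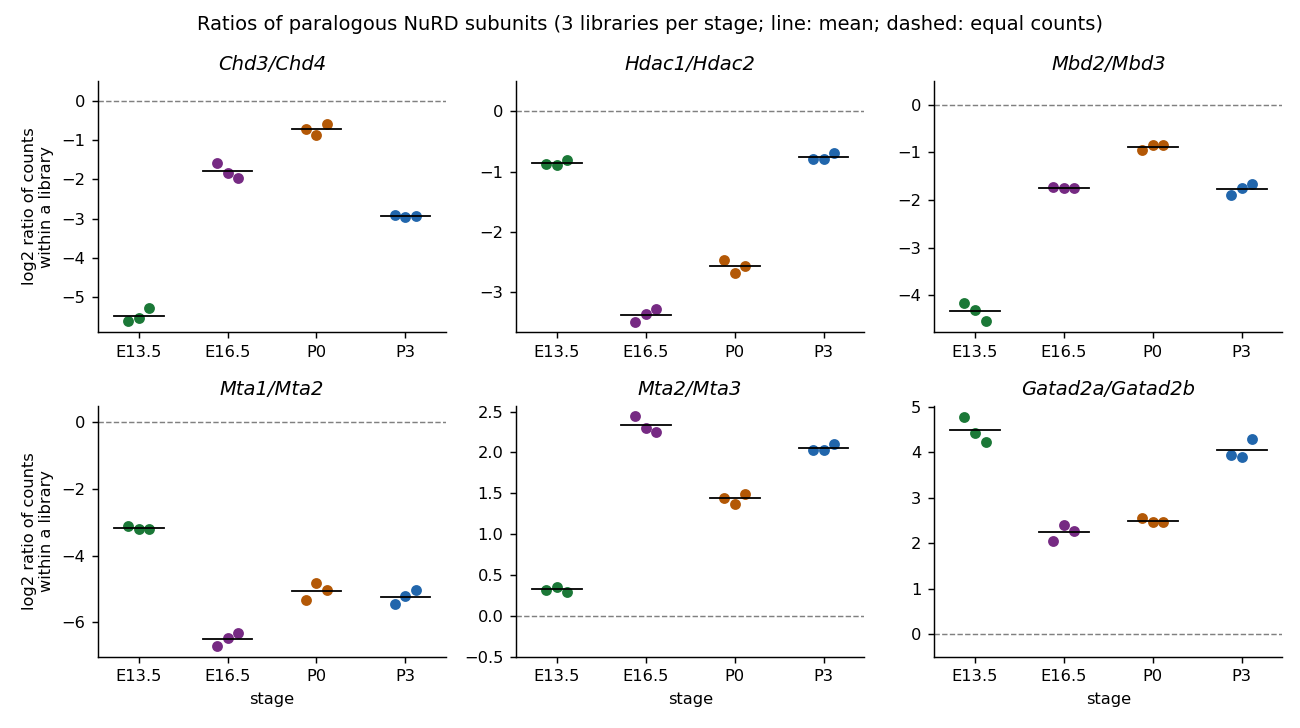
Log2 ratio of the counts of paralogous NuRD genes within each library (vertical axis) at the 4 stages, with 1 point per library and short lines at the stage means; the dashed line marks equal counts. Chd3 relative to Chd4 and Mbd2 relative to Mbd3 climb from E13.5 to P0, whereas Hdac1 relative to Hdac2 dips to between -3.48 and -3.28 at E16.5.

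Promoter sequences from RefSeq (GRCm38.p6, 250 bases before the start) were found for 6 of the 10 members, namely Chd4, Hdac2, Mbd3, Mta1, Mta2 and Gatad2a. Those of Mbd3 and Mta1, which fell steeply at E16.5, are set beside those of their complex partners Hdac2 and Mta2, which did not. Each is written 5′ to 3′ on the strand of its gene, and capitals mark matches on either strand to the CCAAT box (those letters), to the GC box, searched as GGGCGG, and to the ETS word, searched as CCGGAAG.
Mbd3 (chr10:80399532-80399781, minus strand): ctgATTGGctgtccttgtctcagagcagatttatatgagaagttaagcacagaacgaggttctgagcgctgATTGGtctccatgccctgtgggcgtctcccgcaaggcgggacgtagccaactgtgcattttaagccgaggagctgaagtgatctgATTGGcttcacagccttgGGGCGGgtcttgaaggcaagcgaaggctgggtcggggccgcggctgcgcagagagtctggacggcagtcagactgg
Mta1 (chr12:113098028-113098277, plus strand): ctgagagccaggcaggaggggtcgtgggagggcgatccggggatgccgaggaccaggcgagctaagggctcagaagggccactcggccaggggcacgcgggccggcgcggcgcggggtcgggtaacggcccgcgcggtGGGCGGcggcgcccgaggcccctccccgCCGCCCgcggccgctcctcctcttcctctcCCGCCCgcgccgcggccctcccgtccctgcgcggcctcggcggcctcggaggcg
Hdac2 (chr10:36974294-36974543, plus strand): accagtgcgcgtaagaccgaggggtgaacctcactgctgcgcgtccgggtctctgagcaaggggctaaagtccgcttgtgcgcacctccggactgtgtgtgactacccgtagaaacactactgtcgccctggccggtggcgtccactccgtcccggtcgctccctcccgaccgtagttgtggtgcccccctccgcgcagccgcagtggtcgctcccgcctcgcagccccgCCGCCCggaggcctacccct
Mta2 (chr19:8941670-8941919, plus strand): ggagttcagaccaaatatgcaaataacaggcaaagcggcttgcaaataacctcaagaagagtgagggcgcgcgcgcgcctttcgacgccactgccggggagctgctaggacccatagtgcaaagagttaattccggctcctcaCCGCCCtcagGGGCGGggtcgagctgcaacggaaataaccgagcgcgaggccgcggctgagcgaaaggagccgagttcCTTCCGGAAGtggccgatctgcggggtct
The GC box was present in all 6 member promoters and in 33.0% of 32536 RefSeq promoters of the same length. The CCAAT box occurred in those of Mbd3 (3 matches) and Gatad2a (2 matches), and in 33.8% of all, and the ETS word in that of Mta2 only, and in 6.95% of all. CpG pairs numbered 14 in Mbd3, 39 in Mta1, 27 in Hdac2 and 24 in Mta2, where the median promoter had 6. Words for E2F (TTTCCCGC or TTTGGCGC or TTTCGCGC), the E-box (CACGTG) and the cyclic AMP response element (TGACGTCA) were in none of the 6 windows and in 1.55%, 6.04% and 1.56% of all promoters. None of these words contains another, and they were chosen with the values known. No word was present in every listed promoter of a member that fell at E16.5 and absent from the others.

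To ask whether one paralogue replaced another at the transcript level, normalized counts were divided by exon length. They were then expressed as the share of the summed transcript level of each position of the complex. No switch of the leading paralogue was found: in all 7 positions the same gene led at the 4 stages (Chd4, Hdac2, Mbd3, Mta2, Gatad2a, Rbbp7 and Cdk2ap2), with or without the division by length. Of the 50-base exon words, 35.5% in Hdac1 and 56.1% in Cdk2ap1 also occur in other genes. How reads with several matches were handled is not known. If they were dropped, the levels of Hdac1 and Cdk2ap1 are too low here. A switch in the deacetylase or CDK2AP position could then have been missed. The shares themselves ranged widely. Chd3 made up 1.96 ± 0.244%, 17.6 ± 1.81%, 33.8 ± 1.89% and 10.7 ± 0.228% of the remodeller level in stage order (SD, n = 3), while Chd4 went from 92.3 ± 0.553% at E13.5 to 58.8 ± 2.41% at P0. Chd5 held 18.0 ± 0.208% at E16.5, close to the share of Chd3 at that stage.

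Hdac1 contributed 41.7 ± 0.646%, 11.1 ± 0.697%, 18.0 ± 1.06% and 43.4 ± 0.975% of the deacetylase level in stage order, so the gap to Hdac2 was narrowest at E13.5 and P3. Mbd2 accounted for 2.98 ± 0.387%, 15.6 ± 0.0641%, 25.1 ± 0.816% and 15.4 ± 1.08% of the MBD level. Mbd3 therefore kept most of the transcript level of this position throughout. In the MTA position, Mta3 went from 34.9% at E13.5 to 13.1% at E16.5 and Mta1 from 8.35% to 1.25%, and Mta2 from 56.8% to 85.6%. Gatad2a held 97.8%, 90.6%, 92.0% and 97.1% of its position over the 4 stages. Shares are descriptions of transcript levels with no test, and lengths are those of all annotated exons, which may differ from the transcripts used. Neither proteins nor the make-up of assembled complexes were measured.

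**Figure D3:**
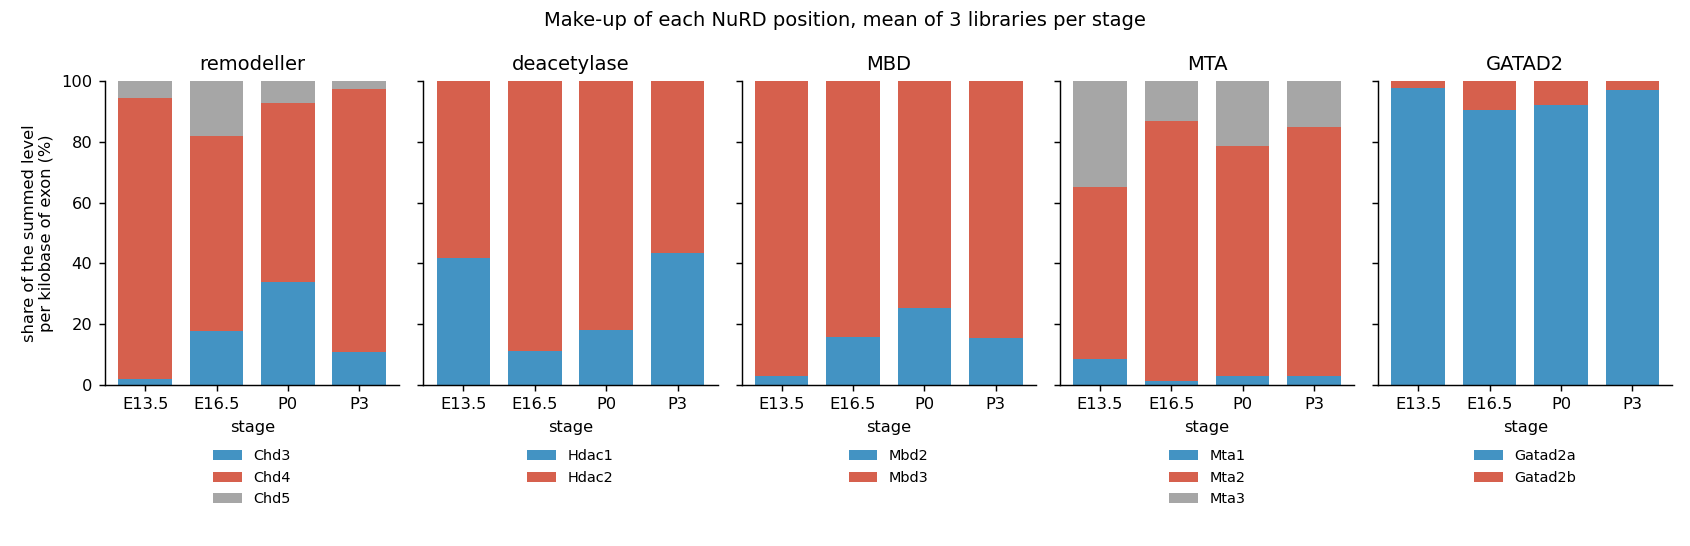
Share of the summed transcript level per kilobase of exon (vertical axis, %) of each paralogue at 5 positions of NuRD, as stacked bars of the mean of 3 libraries per stage. The leading gene is the same at all 4 stages in each panel, and the shares of Chd3 and Mbd2 are largest at P0 with 33.8% and 25.1%.

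Summed over paralogues, 6 of the 7 positions were lower at E16.5 than E13.5, lower again at P0 and higher at P3 in the scaling of the table, and the remodeller position was not. The remodeller position, per kilobase, had 517 ± 16.7, 632 ± 32.8, 502 ± 7.71 and 617 ± 38.1 normalized counts in stage order. The MBD position had 11884 ± 485, 4080 ± 46.3, 2416 ± 54.6 and 6283 ± 133, and the GATAD2 position 3533 ± 222, 1802 ± 177, 1424 ± 80.5 and 3243 ± 372. The deacetylase position had 15859 ± 462, 11027 ± 646, 4958 ± 400 and 8457 ± 230, and the MTA position 4123 ± 200, 3127 ± 272, 1843 ± 160 and 3676 ± 235. The RBBP position had 24695 ± 458, 9274 ± 582, 4951 ± 458 and 14991 ± 793, and the CDK2AP position 6166 ± 350, 4678 ± 493, 2315 ± 124 and 4771 ± 254. These sums carry the scaling. Under equal library totals the remodeller means were 365, 635, 799 and 548 and the MTA means 2912, 3133, 2924 and 3264. The MBD means were 8399, 4096, 3839 and 5575 and the RBBP means 17446, 9307, 7855 and 13295.5. Deacetylase means were 11203, 11056, 7867 and 7502. GATAD2 means were 2495, 1809, 2262 and 2882, and CDK2AP means 4358, 4687, 3677 and 4232. Of the 6 positions above, only MBD and RBBP were then still lower at E16.5, lower again at P0 and higher at P3. Per kilobase, the lowest member was Chd3 at E13.5 (10.1), and the highest was Mbd3 at E13.5 (11531), followed by Hdac2 at E16.5 (9801).

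Outside the 10 members, some of the other subunits took the course of Hdac1 and Mbd3. Of 6 genes (Chd5, Gatad2b, Rbbp4, Rbbp7, Cdk2ap1 and Cdk2ap2), 2 rose and 3 fell from E13.5 to E16.5, 4 fell to P0 (2 higher and 3 lower with equal library totals), and 4 rose and 2 fell to P3. Of all genes, 45.5% rose and 34.6% fell to E16.5, 27.6% and 33.4% to P0, and 40.1% and 36.4% to P3. With equal library totals, 78.7% of all genes called at P0 against E16.5 were higher. Rbbp4, a histone-binding chaperone, had 46814 ± 1788, 9921 ± 2136, 8781 ± 853 and 31072 ± 2664 normalized counts in stage order. Rbbp7 had 56263 ± 882, 23678 ± 1517, 11480 ± 1050 and 33270 ± 1455. Both were lower at E16.5 and higher again at P3, as was Cdk2ap1, while Chd5 and Gatad2b took the opposite course. Exon words shared with other genes made up 17.2% in Rbbp4, 11.2% in Rbbp7 and 56.1% in Cdk2ap1, so their counts are less certain than those of the members other than Hdac1, in which at most 0.173% were shared.

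Complexes that use the same deacetylases gave a mixed picture. The shares of all genes for the counts below were 45.5% higher and 34.6% lower at E16.5, 27.6% and 33.4% at P0, and 40.1% and 36.4% at P3. With equal library totals, 70.1%, 78.7% and 25.2% of all genes called were higher in these 3 steps. Among 14 genes of the SIN3 complex, which carries HDAC1 and HDAC2 to other targets, 3 rose and 5 fell to E16.5, 1 rose and 8 fell to P0, and 8 rose and 3 fell to P3. Their median log2 fold changes were -0.16, -0.31 and 0.42, each of which changed sign with equal library totals (0.34, 0.35 and -0.42). Sap18 and Sinhcaf, both subunits of SIN3, fell by 2.67 and 2.47 to E16.5 and rose by 1.88 and 2.13 from P0 to P3, with the same signs under all 5 scalings. Among 10 genes of CoREST and MiDAC, 5 rose and 3 fell to E16.5, 3 rose and 6 fell to P0, and 2 rose and 6 fell to P3, with medians of 0.23, -0.27 (0.39 with equal library totals) and -0.48. From P0 to P3 the median of these genes was negative and that of the NuRD members positive, under each scaling. Among 17 listed partners and recruiters of NuRD, 6 rose and 9 fell to E16.5, 8 rose and 2 fell to P0, and 7 rose and 8 fell to P3, with medians of -0.52, 0.24 and 0.47. With equal library totals the calls were 7 higher and 8 lower, 14 higher and 1 lower, and 3 higher and 8 lower, with medians of -0.017, 0.90 and -0.37. Sall4, a zinc finger factor that binds NuRD in germ cells, had log2 fold changes of -0.52, -0.95 and 1.30, which were -0.017 (not called), -0.29 and 0.46 with equal library totals.

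Fold changes can also be read against the median of all genes, which takes out any shift shared by all genes of a library. Equal library totals moved the median of all genes by 0.53 from E13.5 to E16.5, by 0.69 to P0 and by -0.91 to P3 on the log2 scale. With each comparison expressed relative to that median, 2 members stood above it and 8 below at E16.5 against E13.5 (Chd3 and Mbd2 above), again 2 above and 8 below at P0 against E16.5 (Chd3 and Mta1 above), and 9 above and 1 below at P3 against P0. Some of these lay close to the median: Mta2 at E16.5 against E13.5 (-0.12), and Mta3 (-0.04) and Mbd2 (-0.06) at P0 against E16.5. Distances from the median were not tested. Before the median is taken off, 9, 5 and 7 of the 10 members had the same sign under all 5 scalings.

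**Figure D4:**
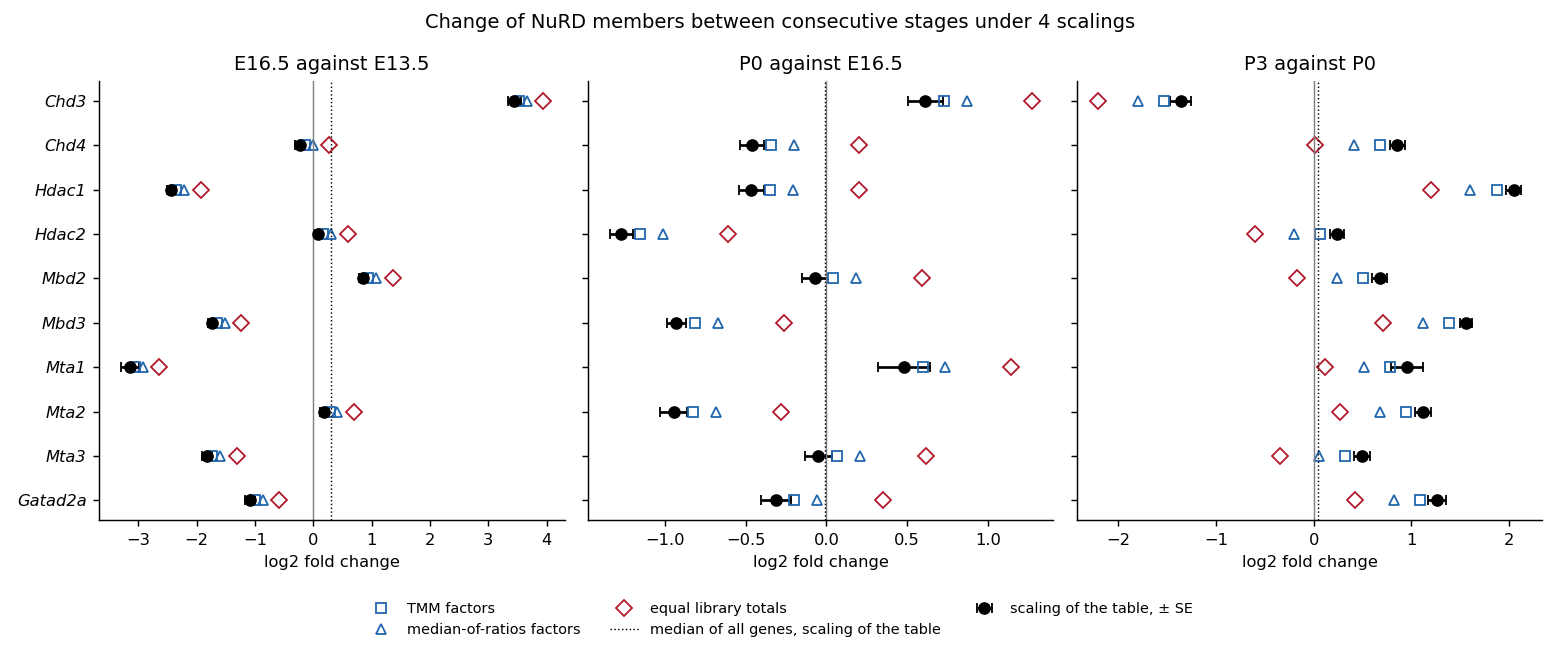
Log2 fold change (horizontal axis) of each of the 10 members in the 3 comparisons of consecutive stages, as deposited (filled circles with SE) and under TMM, median-of-ratios and equal-total scaling (open markers); the dotted line is the median of all genes as deposited. Markers of Chd3, Hdac1, Mbd3 and Mta1 stay on 1 side of 0 from E13.5 to E16.5, whereas those of Chd4 cross it.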

How the data were processed

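RNA sequencing libraries from germ cells of 4 stages (3 each) were analysed from 1 table. Per the submitters' processing notes, bcl2fastq 2.20, cutadapt 1.18, HISAT2 2.1.0, featureCounts 1.5.2 and DESeq2 1.26.0 were used, on build GRCm38 (mm10). The annotation release, strand setting and handling of reads with several matches are not given in the sources used here. The deposited signal is reads divided by a size factor per library, per the file headers (RLE), and 100% of values were whole multiples of 1 read (tolerance 0.001), so reads were recovered. Symbols were matched for 55141 of 55487 genes.

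Values were tested as log2(normalized count + 1) with limma 3.58.1 (trend), for the 22384 genes that reached 10 normalized counts in 3 or more libraries, fitting all 12 libraries, with Benjamini-Hochberg adjustment over all genes and a threshold of 0.05. All 10 members passed the filter. Paralogue ratios were tested by exact permutation. Alternatives were edgeR 4.0.16 and DESeq2 1.42.0 on recovered reads, other scalings, pseudocounts (0.1 and 10), filters and single libraries left out. Scripts were tested on simulated data. Column heads carry a number that could not be tied to the replicate numbers of the titles, so columns were assigned to stages only. Members are all named; members, lists and tests were chosen with earlier results of these data known. Beyond members, genes were named where a result turned on them.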

Additional observations from a re-analysis of the deposited data

How the results depend on the processing

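Of the members' values with the other sign, 19 came with another scaling and 2 with a library left out. With equal library totals, log2 fold changes of the other sign were Chd4 0.27 (E16.5 against E13.5), 0.20 (P0 against E16.5) and 0.48 (P0 against E13.5), Hdac1 0.20 (P0 against E16.5), Hdac2 -0.60 (P3 against P0), Mbd2 0.59 (P0 against E16.5), also -0.17 (P3 against P0), Mta2 0.42 (P0 against E13.5) and -0.0058 (P3 against E16.5), Mta3 0.61 (P0 against E16.5), also -0.34 (P3 against P0), and Gatad2a 0.35 (P0 against E16.5) and 0.19 (P3 against E13.5). Among other subunits they were Gatad2b 0.095, Rbbp4 0.51 and Cdk2ap1 0.52 (P0 against E16.5), and Cdk2ap2 0.39 (E16.5 against E13.5) and 0.026 (P3 against E13.5). With median-of-ratios factors they were Hdac2 -0.20 (P3 against P0), Mbd2 0.18, Mta3 0.21, Rbbp4 0.10 and Cdk2ap1 0.11 (P0 against E16.5), Mta2 -0.011 (P3 against E16.5) and Cdk2ap2 0.10 (E16.5 against E13.5). TMM gave Mbd2 0.044 and Mta3 0.067 (P0 against E16.5). The cause of these differences is the factor applied to whole libraries, and ratios within a library do not contain it.

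A size limit of 1 on the log2 scale, added to the threshold, left 1 member at P0 against E16.5, then 5 (P3 against P0), 3 (P3 against E16.5) and 5 (P3 against E13.5). At E16.5 against E13.5 it left Chd3, Hdac1, Mbd3, Mta1, Mta3 and Gatad2a, and at P0 against E13.5 these genes and Hdac2. The share of all genes past that limit is not given here, so these counts say nothing particular to the members. Leaving out each library in turn kept 705 of 720 values of member and comparison at the same direction and side of the threshold. For Mta3, P0 against E16.5, this gave values from -0.11 to 0.041, with 0.010 without library 3 of E16.5 and 0.041 without library 4 of P0. Chd4 at P3 against E13.5 gained a call without library 1 or 4 of E16.5, and Gatad2a without library 4 of P3. Counts of called members ranged from 8 to 9 (E16.5 against E13.5), 7 to 8 (P0 against E16.5) and 8 to 9 (P3 against E13.5). Of the 720 values from the other settings, 655 were the same. Under equal library totals Hdac2 at P0 against E13.5 (-0.017), Chd4 (0.014) and Mta1 (0.12) at P3 against P0 lost their calls. A replicate block could not be fitted with the replicate numbers of the titles, which do not match the column heads. A replicate block on the number in the column heads, chosen after seeing the data, left 10 members called among stages and 9, 8, 10, 10, 9 and 8 in the 6 comparisons, and changed none of the 60 values of member and comparison in direction or call. That number does not pair the libraries: 0 of 18 same-numbered pairs had deviations from the stage means correlated above 0.1 (range -0.0356 to 0.0423), and 0 of 12 libraries correlated best with their own number in every other stage.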

Other observations

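Other enzymes of the same families were measured in the same libraries. Hdac6, a largely cytoplasmic deacetylase of tubulin, rose by 2.73 on the log2 scale from E13.5 to E16.5 (SE 0.0877, limma adjusted p = 5.52e-14), and Hdac3, the catalytic subunit of the NCoR and SMRT complexes, fell by 1.70 (SE 0.0716, adjusted p = 1.37e-12) and rose by 1.72 from P0 to P3 (adjusted p = 1.97e-12). All 9 of the deacetylases outside NuRD that were listed were called at E16.5 against E13.5, 5 higher and 4 lower, and with equal library totals 5 were higher and 2 lower. Of all genes, 80.1% were called, 45.5% higher and 34.6% lower, and with equal library totals 70.1% of those called were higher. From P0 to P3, 5 of these deacetylases were called higher and 2 lower, or 2 higher and 5 lower with equal library totals. Of all genes, 40.1% were higher and 36.4% lower at that step. With equal library totals, 25.2% of those called were higher. Among 5 other MBD proteins, 2 were called higher and 3 lower at E16.5 against E13.5, and 3 higher and 1 lower at P3 against P0. With equal library totals, 2 were higher and 2 lower at each of these steps. Mbd6 rose by 0.75 to E16.5 and fell by 1.22 from P0 to P3. Mbd4, a glycosylase that repairs deaminated CpG sites, fell by 2.102 to E16.5 (SE 0.124, adjusted p = 9.73e-11) and rose by 1.95 from P0 to P3 (adjusted p = 3.56e-10). These signs were the same under all 5 scalings.

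Among 6 other CHD remodellers, Chd7 rose by 1.72 from E13.5 to E16.5 (SE 0.127, limma adjusted p = 1.81e-09). At this step 1 of the 6 was called higher and 2 lower, and with equal library totals 4 were higher and 0 lower. Of all genes, 45.5% were higher and 34.6% lower there, and 70.1% of those called with equal library totals were higher. From P0 to P3, Chd9 fell by 2.15 (adjusted p = 6.93e-08), Chd1 fell by 1.184 (adjusted p = 2.42e-08) and Chd7 fell by 0.87 (adjusted p = 1.02e-05), again with the same signs under all 5 scalings. In this list 2 genes rose and 4 fell from P0 to P3, and with equal library totals none rose and 5 fell. Of all genes, 40.1% rose and 36.4% fell at this step, and with equal library totals 25.2% of those called were higher.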
